A study of Homo sapiens with 6 samples.

Results

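The 6 genes described here encode enzymes that make or break down proline: PRODH, ALDH4A1, PYCR1, PYCR3, ALDH18A1 and OAT. They were named by symbol, and all 6 were found among the 24305 gene symbols of the deposited tables. The group was selected on measured values as well as function, because PRODH had already stood out as higher with talazoparib in these same libraries. The difference between the groups is therefore given for the 6 genes as a description, with no p-value, and supports nothing further. All 6 passed the filter on low counts, as did 14452 of the 24305 genes. The libraries hold total RNA of DU 145, an established human prostate cancer line, after 48 h with talazoparib (n = 3 libraries) or after 48 h in the control group (n = 3), which the labels call "DMOS", read here as the solvent DMSO. Talazoparib blocks the enzymatic activity of PARP1 and PARP2 and holds them on damaged DNA. The design text names several doses and does not say which one was sequenced, and both groups are the same line, so the results describe 1 line only. The labels number the replicates without saying that they were separate cultures, so the spread between libraries may be technical.

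Proline and glutamate are linked through a shared intermediate, pyrroline-5-carboxylate (P5C). In breakdown, proline dehydrogenase (PRODH), bound to the inner mitochondrial membrane, oxidises proline to P5C and passes the electrons to the respiratory chain, and P5C dehydrogenase (ALDH4A1) oxidises P5C to glutamate. In synthesis, ALDH18A1 makes P5C from glutamate, ornithine aminotransferase (OAT) makes it from ornithine, and the P5C reductases, among them the mitochondrial PYCR1 and the cytosolic PYCR3, reduce it to proline. Proline synthesis is known for its activity in many cancers.

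Total counts ran from 39443359 to 39585727 per library with talazoparib and from 39123997 to 39545215 in controls. Of the 14452 genes tested with edgeR's quasi-likelihood test at an adjusted p of 0.05, 26.8% were called higher with talazoparib and 29.9% lower, so a call in either direction was common. Fold changes followed the GC content of the transcript: on the log2 scale their median was -0.73 in the lowest decile of GC content and 0.43 in the highest. Of the epithelial markers, the keratin genes KRT8 and KRT18 were abundant, at 557 ± 31.5 and 577 ± 44.1 CPM with talazoparib against 583 ± 61.5 and 526 ± 70.0 CPM in controls (counts scaled to TMM-adjusted library sizes; SD, n = 3 each). KRT19 rose to 91.4 ± 8.01 CPM with talazoparib, against 41.8 ± 4.35 CPM in controls (edgeR adjusted p = 9.02e-06), and EPCAM had 6.03 ± 0.85 CPM with talazoparib and 4.74 ± 0.48 CPM in controls. The epithelial cadherin gene CDH1 was low, at 0.80 ± 0.28 CPM with talazoparib and 1.37 ± 0.38 CPM in controls, although DU 145 is usually described as expressing it. CTNNA1, which is deleted in PC-3, the other line of the design, averaged 310 CPM with talazoparib and 302 CPM in controls. These markers do not settle the identity of the line. The leukocyte markers PTPRC and CD3E and the fibroblast markers COL1A2 and DCN were at 0 counts in every library. CD68, a lysosomal protein gene listed as a leukocyte marker, was higher, and the leukocyte list summed to 61.7 to 70.8 CPM with talazoparib against 23.9 to 27.0 CPM in controls. The part of this difference in the results was not tested.

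Per transcript length, PYCR1 was the most abundant of the 6 and PRODH the least in both groups. Levels between genes are compared in FPKM, in which counts are divided by the gene length and the library total. With talazoparib PYCR1 averaged 180.5 ± 6.34 FPKM, followed by ALDH18A1 at 43.6 ± 1.84, ALDH4A1 at 23.95 ± 0.42, PYCR3 at 20.3 ± 0.35, OAT at 19.5 ± 2.27 and PRODH at 4.75 ± 0.27 FPKM (SD, n = 3). In controls the order was PYCR1 at 152 ± 8.27 FPKM, ALDH18A1 at 48.7 ± 2.33, OAT at 30.3 ± 2.96, ALDH4A1 at 17.05 ± 0.92, PYCR3 at 15.8 ± 1.35 and PRODH at 1.38 ± 0.31 FPKM. The only gene to change its place past non-overlapping neighbours was OAT, which stood above ALDH4A1 and PYCR3 in each control library. With talazoparib the libraries of OAT and PYCR3 overlapped, and neither stood above the other in every library. In controls the ranges of ALDH4A1 and PYCR3 overlapped, while ALDH4A1 was the higher within each of the 3 libraries.

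**Figure D1:**
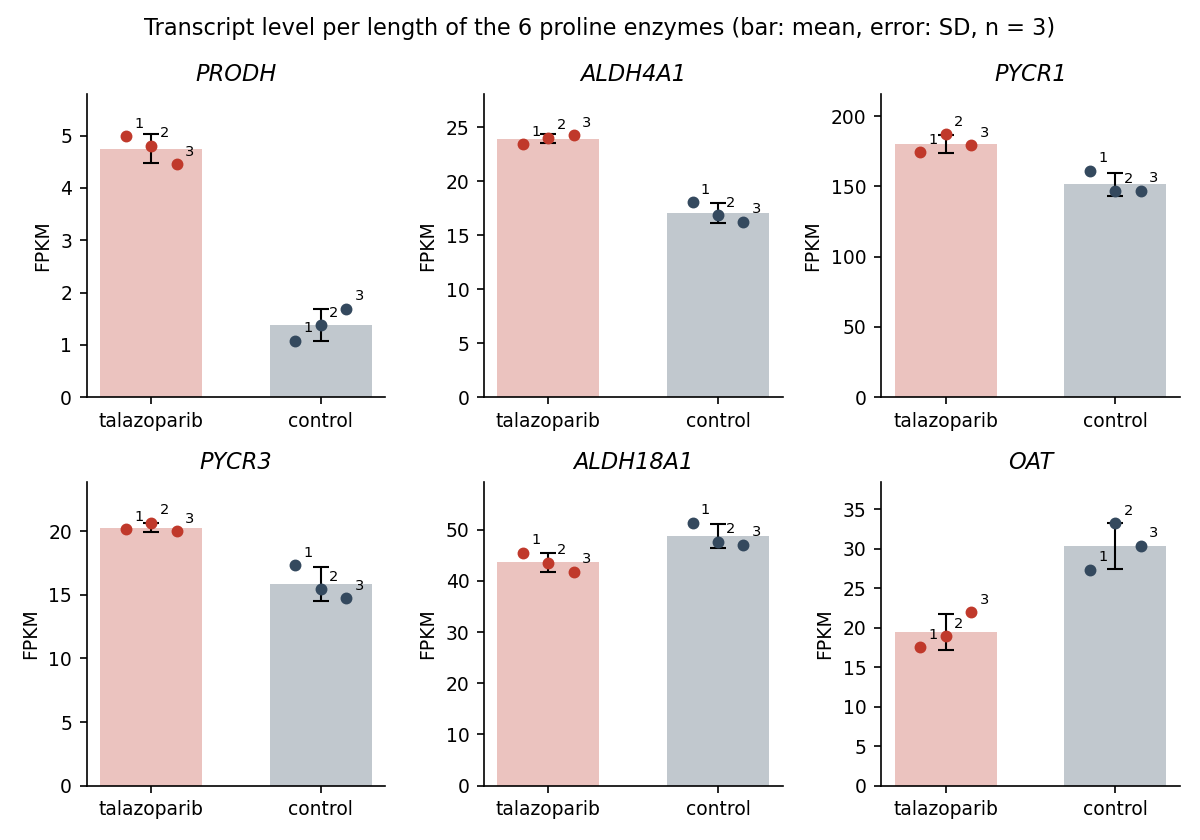
Deposited FPKM of each of the 6 genes (vertical axis, from 0, scaled separately per gene) in the talazoparib and control libraries; bars are means, error bars SD, and points the 3 libraries with their replicate numbers. PRODH lay between 4.45 and 5.00 FPKM with talazoparib against 1.08 and 1.69 FPKM in controls, while ALDH18A1 differed little between the groups.

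PRODH, which carries out the committed step of proline breakdown, was the gene of the 6 with the widest separation. It had 468, 449 and 416 counts with talazoparib replicates 1 to 3, against 101, 127 and 158 counts in control replicates 1 to 3. These were 12.2, 11.9 and 10.6 CPM with talazoparib and 2.56, 3.09 and 3.89 CPM in controls. Each talazoparib library was above each control library, and the controls varied more among themselves in proportion to their mean. The fitted log2 fold change was 1.86 ± 0.17 (SE), a 3.63-fold difference. PRODH lies on chromosome 22 from 18912777 to 18936553 (GRCh38, minus strand, GENCODE 29). Its end overlaps the oppositely transcribed DGCR6 by 1462 bp, and a longer plus-strand locus spans the whole gene. The strand setting of the counting is not given in the sources used here, so reads from overlapping parts cannot be assigned with certainty. RefSeq also lists a pseudogene, PRODHLP, on chromosome 22, and how shared reads were treated is likewise not given. DGCR6, a gene of the DiGeorge critical region, also rose, to 17.1 ± 0.66 CPM with talazoparib, against 8.89 ± 1.03 CPM in controls (log2 fold change 0.94 ± 0.13, edgeR adjusted p = 8.01e-05). Its log2 fold change was 0.60 ± 0.09 with the trend over GC content and length removed. Whether reads of DGCR6 entered the PRODH counts was not tested.

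ALDH4A1, the enzyme that follows PRODH and completes the conversion to glutamate, was also higher, by less. Its libraries had 80.8, 84.1 and 81.2 CPM with talazoparib, against 60.5, 53.5 and 52.6 CPM in controls. The groups did not overlap, and control replicate 1 was the highest control. The log2 fold change was 0.56 ± 0.08, or 1.48-fold. Because PRODH differed more than ALDH4A1, the FPKM ratio of ALDH4A1 to PRODH was 5.05 ± 0.38 with talazoparib and 12.9 ± 3.60 in controls (SD, n = 3 each). ALDH4A1 lies on chromosome 1 from 18871430 to 18902781 (GRCh38, minus strand), within a longer locus annotated on the same strand, and holds the microRNA genes MIR4695 and MIR1290.

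The P5C reductases PYCR1 and PYCR3, which carry out the last step of synthesis, were higher by about the same small amount, a direction that turned for PYCR1 and came to about 0 for PYCR3 once the trend with GC content and length was removed. PYCR1 had 408, 445 and 408 CPM with talazoparib, against 367, 317 and 324 CPM in controls. PYCR3 had 69.5, 72.4 and 66.8 CPM with talazoparib, against 58.2, 49.1 and 47.8 CPM in controls. For both genes every talazoparib library lay above every control library, and control replicate 1 lay nearest to the treated ones. The log2 fold changes were 0.32 ± 0.08 for PYCR1 and 0.43 ± 0.09 for PYCR3. PYCR1 is on chromosome 17 from 81932384 to 81942412 and overlaps MYADML2, on the same strand, by 2768 bp. PYCR3 is on chromosome 8 from 143603913 to 143609773, with no overlapping gene in GENCODE 29.

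The mitochondrial and the cytosolic reductase kept nearly the same proportion to each other. The FPKM ratio of PYCR1 to PYCR3 was 8.66, 9.06 and 8.99 with talazoparib replicates 1 to 3, against 9.30, 9.51 and 9.98 in control replicates 1 to 3. The talazoparib ratios all lay below the controls, by a small margin, at 8.90 ± 0.22 with talazoparib and 9.60 ± 0.35 in controls (SD, n = 3 each). The FPKM ratio of PYCR1 to PRODH, the most abundant synthesis gene over the first breakdown gene, was 35.0, 38.9 and 40.3 with talazoparib against 149, 107 and 86.8 in controls.

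As counted, the enzymes that supply P5C for synthesis did not share the direction of the reductases, a contrast that was not seen with the GC and length trend removed, where PYCR1, PYCR3, ALDH18A1 and OAT all lay at or below 0. ALDH18A1, which makes P5C from glutamate and is also called P5C synthase, had 172, 167 and 153 CPM with talazoparib, against 189, 166 and 167 CPM in controls. The groups overlapped in CPM, and the log2 fold change was -0.08 ± 0.08. In FPKM, which lacks the TMM scaling, the talazoparib libraries (41.8 to 45.5) all lay below the controls (47.0 to 51.3). OAT, the mitochondrial aminotransferase that draws P5C from ornithine, had 46.7, 51.4 and 56.9 CPM with talazoparib, against 71.0, 81.9 and 76.2 CPM in controls. All 3 talazoparib libraries lay below the controls, with a log2 fold change of -0.57 ± 0.09. With the trend removed it was -0.09 ± 0.07 and OAT was not called. The FPKM ratio of ALDH18A1 to OAT was 2.27 ± 0.35 with talazoparib and 1.62 ± 0.23 in controls. With the trend removed the log2 fold change of ALDH18A1 was -0.09 ± 0.06, about that of OAT, so the shift in this ratio was not seen. ALDH18A1 lies on chromosome 10 from 95605929 to 95656706 and OAT on the same chromosome from 124397303 to 124418976 (GRCh38, both on the minus strand), and no other GENCODE 29 gene overlaps either. In bulk RNA, fewer cells expressing a gene and less of its RNA per cell cannot be told apart.

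Promoter windows (RefSeq, GRCh38.p14, 250 bases before to 50 after the start) were matched for 3 of the 6 genes, ALDH4A1, ALDH18A1 and OAT. For each of these genes 1 window is shown. As counted, ALDH4A1 was higher, ALDH18A1 differed little and OAT was lower. They were searched on both strands for TGATGNAA, an element bound by ATF4, and for CACGTG, the E-box bound by MYC. The E-box was found in ALDH18A1 alone, once, at position -136 from the start, shown in capitals, against 7.26% of all 35116 windows. No window of the 3 genes held the ATF4 letters, against 3.62% of all windows. The OAT and ALDH18A1 windows had 67.3% and 67.0% GC, and the ALDH4A1 window 57.7%, against a median of 58.7%. The windows are chr1:18902506-18902805 for ALDH4A1, chr10:95656662-95656961 for ALDH18A1 and chr10:124418874-124419173 for OAT, each read 5′ to 3′ on the minus strand.
ALDH4A1: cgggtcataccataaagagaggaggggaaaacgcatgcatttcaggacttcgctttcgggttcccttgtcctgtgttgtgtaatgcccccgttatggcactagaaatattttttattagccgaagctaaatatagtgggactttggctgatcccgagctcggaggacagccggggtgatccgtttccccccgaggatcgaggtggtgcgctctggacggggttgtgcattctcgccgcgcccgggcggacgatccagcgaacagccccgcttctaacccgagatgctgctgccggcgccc
ALDH18A1: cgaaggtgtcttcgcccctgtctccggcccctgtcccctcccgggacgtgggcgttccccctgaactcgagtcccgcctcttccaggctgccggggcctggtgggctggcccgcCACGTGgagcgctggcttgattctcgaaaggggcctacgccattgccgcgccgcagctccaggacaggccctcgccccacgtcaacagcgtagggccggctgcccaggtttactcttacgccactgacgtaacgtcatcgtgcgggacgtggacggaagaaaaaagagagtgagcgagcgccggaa
OAT: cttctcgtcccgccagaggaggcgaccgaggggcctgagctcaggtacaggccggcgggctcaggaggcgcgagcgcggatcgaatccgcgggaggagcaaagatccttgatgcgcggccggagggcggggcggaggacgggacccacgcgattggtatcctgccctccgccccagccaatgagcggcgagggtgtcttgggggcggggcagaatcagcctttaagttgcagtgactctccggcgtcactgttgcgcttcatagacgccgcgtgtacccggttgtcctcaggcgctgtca

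By edgeR's calls, 4 of the 6 genes were higher (PRODH, ALDH4A1, PYCR1 and PYCR3), against 26.8% of all genes tested, 1 was lower (OAT), against 29.9%, and ALDH18A1 was not called. The groups did not overlap in CPM for the same 4 genes upward, against 31.6% of all genes, and for OAT downward, against 32.8%. Since this contrast helped to choose the genes, nothing is read from these counts. The members differ in the GC content of their longest transcript, which is not separate from the choice because fold changes followed it. The 4 higher genes had 60.5% (ALDH4A1), 61.8% (PYCR1), 63.2% (PYCR3) and 63.3% (PRODH), ALDH18A1 had 49.3% and OAT 41.2%. Their deposited lengths, 2269 nt (PYCR1) to 3660 nt (ALDH18A1), were all within the third to the fifth decile of tested genes.

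Set beside other genes of like GC content, PRODH stood well above the median, ALDH4A1 somewhat above it, and PYCR1, PYCR3, ALDH18A1 and OAT close to it. In the decile that holds PRODH and PYCR3 the median log2 fold change was 0.43 and 66.3% of genes were called higher. In the decile of ALDH4A1 and PYCR1 the median was 0.38 and 61.5% were called higher. In the decile of ALDH18A1 the median was -0.13, and in that of OAT it was -0.67 with 66.9% of genes called lower. With each library's trend over GC content and length removed, PRODH had a log2 fold change of 1.35 ± 0.16 and ALDH4A1 one of 0.16 ± 0.05. On the same scale PYCR1 turned to -0.17 ± 0.04 and PYCR3 to -0.01 ± 0.06, while ALDH18A1 had -0.09 ± 0.06. In that fit 2 of the 6 were called higher (PRODH and ALDH4A1), against 22% of all genes, and 1 lower (PYCR1), against 22.4%. Nothing is read from these counts either. Because PRODH had already stood out in these libraries, its place above genes of like GC content is a description only. The direction given for PYCR1 thus turns with the removal of the trend, and the difference for PYCR3 all but vanishes. PRODH and ALDH4A1 stay higher, though ALDH4A1 moves from 0.56 to 0.16 ± 0.05. OAT keeps its sign but moves from -0.57 to -0.09 ± 0.07, and neither OAT nor ALDH18A1 was called in that fit. Because the trend runs with the groups, its part in these fold changes cannot be told apart from that of the treatment.

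**Figure D2:**
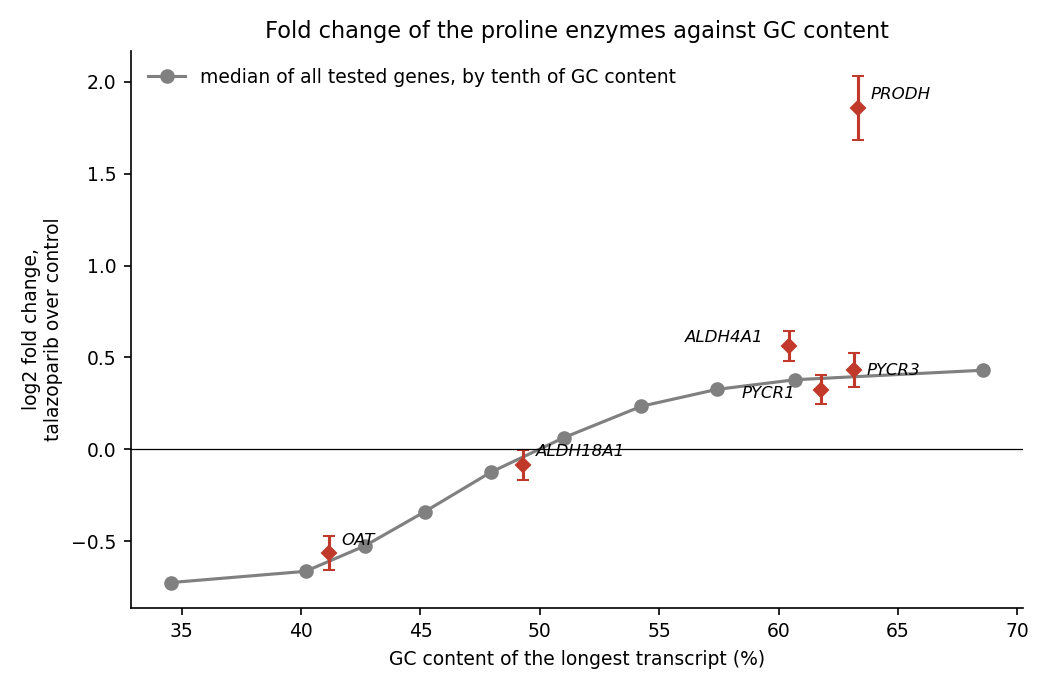
Log2 fold change, talazoparib over control (vertical axis, error bars SE), against GC content of the longest GENCODE 29 transcript (horizontal axis, %) for the 6 genes (diamonds); grey points join the median of all tested genes in each decile of GC content, placed at the middle of its range. PRODH, at 1.86, sits far above the grey line at its GC content, where the decile median is 0.43, and OAT, at -0.57, sits near it.

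**Figure D3:**
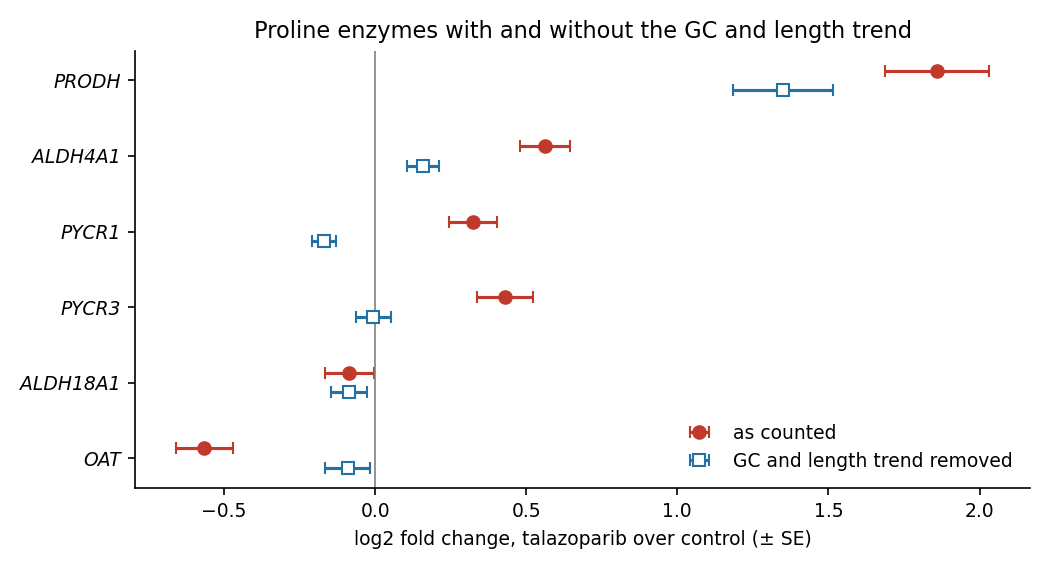
Log2 fold change, talazoparib over control (horizontal axis, ± SE, n = 3 libraries each), as counted (filled circles) and with the GC and length trend removed (open squares), for the 6 genes. PRODH moves to 1.35 and stays the highest, PYCR1 crosses 0, and OAT moves from -0.57 to -0.09.

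The genes whose profile over the 6 libraries lay nearest to that of a member, by Euclidean distance of centred log2 CPM among 10108 candidates with a mean of at least 5 CPM, show which other transcripts varied alike. Nearest to PRODH were PARP10, a mono-ADP-ribosyltransferase (distance 0.41, log2 fold change 1.72), the adenosine receptor gene ADORA1 (0.55, 1.82) and BMF, a pro-apoptotic BH3-only gene (0.56, 1.87). Nearest to ALDH4A1 were ABCB9, CUEDC1 and PDXP, at distances of 0.045 to 0.051. RER1, C19orf33 and CPNE1 lay nearest to PYCR1 (0.026 to 0.040), and SLC39A3, NAPRT and MFSD13A to PYCR3 (0.027 to 0.043). PEX19, FAM120AOS and MRPS27 lay nearest to ALDH18A1 (0.053 to 0.077), and XYLB and EZH2 were among those nearest to OAT (0.092 and 0.114). The nearest gene to PRODH was thus farther from it than the nearest gene of any other member was from its own. PRODH also had the lowest counts of the 6 and the largest SD within groups of log2 CPM. That SD was 0.22, against 0.08 (ALDH4A1) to 0.12 (OAT) for the others. The distance also includes the difference between the groups for which PRODH stood out, so it is no separate trait of the gene.

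Among the enzymes that link proline to glutamate, glutamine and ornithine, 7 of 16 tested genes rose and 2 fell, beside 26.8% and 29.9% of all genes tested. Their median log2 fold change was 0.18, against 0.00 over all genes. GPT2, the mitochondrial alanine aminotransferase, had 137 ± 5.53 CPM with talazoparib and 96.3 ± 7.94 CPM in controls (0.51 ± 0.08, edgeR adjusted p = 0.000233). The argininosuccinate synthase gene ASS1 (0.46 ± 0.11), the argininosuccinate lyase gene ASL (0.30 ± 0.09), the mitochondrial glutaminase gene GLS2 (0.68 ± 0.18) and the N-acetylglutamate synthase gene NAGS (0.41 ± 0.12) rose as well. ARG2, the mitochondrial arginase that releases ornithine, fell to 13.3 ± 1.38 CPM with talazoparib, against 18.2 ± 1.11 CPM in controls (-0.46 ± 0.12, edgeR adjusted p = 0.00636). With the trend removed GPT2 (0.29) and ARG2 (-0.45) were still called, while ASS1 (0.04), ASL (-0.16), GLS2 (0.40) and NAGS (-0.09) were not. That fit called 4 of the 16 higher and 1 lower, beside 22% and 22.4% of all genes, with a median of 0.02. The call for GLS2 also ended without control replicate 3 (0.61), that for NAGS without control replicate 2 (0.33) or 3 (0.33), and that for ASL without talazoparib replicate 2 (0.21) or control replicate 2 (0.23) or 3 (0.26). GPT, at 0.07 CPM with talazoparib and 0.14 CPM in controls, was not tested, and ARG1 and OTC were not analysed here.

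Genes for the use and release of proline went both ways: of 15 tested, 6 rose and 3 fell, beside 26.8% and 29.9% of all genes, around a median of 0.13 on the log2 scale. P3H3, a collagen prolyl 3-hydroxylase family gene, had 54.0 ± 5.27 CPM with talazoparib and 31.3 ± 3.29 CPM in controls (0.79 ± 0.10, edgeR adjusted p = 6.91e-05). P3H1, the collagen prolyl 3-hydroxylase (0.31 ± 0.08), and GRHPR, which reduces the glyoxylate that hydroxyproline breakdown yields (0.46 ± 0.09), rose too. P4HA1, a catalytic subunit of collagen prolyl 4-hydroxylase, had 39.9 ± 8.13 CPM with talazoparib and 66.7 ± 6.29 CPM in controls (-0.74 ± 0.13, edgeR adjusted p = 0.000705). The glutamyl-prolyl-tRNA synthetase gene EPRS1, which charges tRNA with proline in the cytosol, had 80.9 ± 4.25 CPM with talazoparib and 129 ± 27.0 CPM in controls (-0.68 ± 0.13, edgeR adjusted p = 0.00118). XPNPEP3, a mitochondrial aminopeptidase that cuts before proline, fell by 0.74 ± 0.15. With the trend removed P3H3 (0.30), GRHPR (0.21) and P4HA1 (-0.24) kept their calls, and P3H1 (-0.05), EPRS1 (-0.18) and XPNPEP3 (-0.07) did not pass.

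Of 7 proline transporter genes only 3 were expressed enough to test. SLC36A1, a lysosomal and plasma membrane transporter of small neutral amino acids, had 15.6 ± 0.23 CPM with talazoparib and 24.2 ± 0.48 CPM in controls (-0.63 ± 0.10, edgeR adjusted p = 0.000252). SLC36A4, of the same family, had 12.4 ± 1.73 CPM with talazoparib and 18.0 ± 0.74 CPM in controls (-0.53 ± 0.13, edgeR adjusted p = 0.00367). SLC38A2, the neutral amino acid transporter SNAT2, chosen after its values were seen, averaged 252 ± 41.7 CPM with talazoparib and 299 ± 42.5 CPM in controls and did not pass (edgeR adjusted p = 0.113). With the trend removed SLC36A1 stayed lower (-0.24; 0.12 with the trend over length alone removed), and SLC36A4 (0.27) and SLC38A2 (0.43) were called higher. SLC6A7, SLC6A15, SLC6A20 and SLC36A2 had 0 counts in every library.

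The 4 transcription factor genes listed as acting on the pathway were all called, 1 higher and 3 lower, where 26.8% and 29.9% of all genes were, and their RNA levels say nothing of the activity of the proteins. ATF4, which drives amino acid synthesis genes including PYCR1 and ALDH18A1, rose to 442 ± 11.8 CPM with talazoparib, against 352 ± 16.6 CPM in controls (0.33 ± 0.07, edgeR adjusted p = 0.00176). MYC, known to lower PRODH and raise PYCR1 and ALDH18A1, fell to 103 ± 2.97 CPM with talazoparib, against 120 ± 3.51 CPM in controls (-0.22 ± 0.07, edgeR adjusted p = 0.0200). The MYC call ended when talazoparib replicate 1 was left out (-0.20) and with the trend over length alone removed (-0.09). PPARG, whose ligands can induce PRODH, had 20.6 ± 0.96 CPM with talazoparib and 27.8 ± 2.12 CPM in controls (-0.44 ± 0.10, edgeR adjusted p = 0.00337). HIF1A, a hypoxia factor, had 35.6 ± 4.40 CPM with talazoparib and 67.3 ± 11.3 CPM in controls (-0.92 ± 0.13, edgeR adjusted p = 0.000142). With the trend removed ATF4 (0.27) and MYC (-0.39) were still called, and PPARG (0.14) and HIF1A (-0.25) were not. Over the 38 tested genes of these lists together, 14 were called higher and 10 lower, beside the same 26.8% and 29.9% of all genes. Without control replicate 2 these counts were 7 and 9, while those over all genes went from 3873 and 4327 to 2715 and 3752. Without control replicate 3 they were 6 and 9, beside 2622 and 3731 over all genes.

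**Figure D4:**
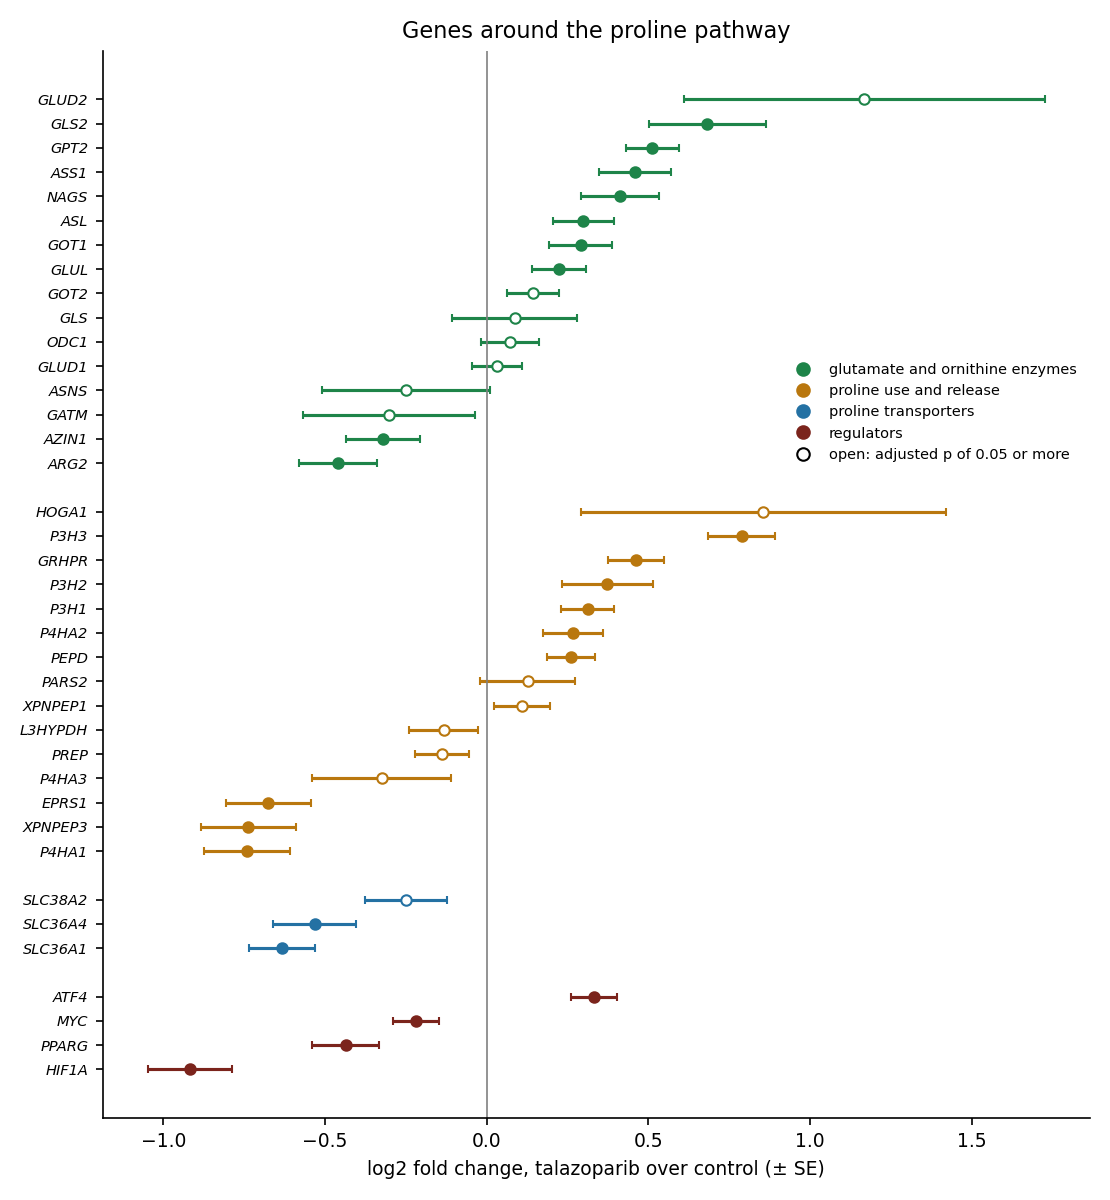
Log2 fold change, talazoparib over control (horizontal axis, ± SE, n = 3 libraries each), of the 38 tested genes of the lists around the pathway, coloured by list and ordered within each list; filled points passed edgeR's test at an adjusted p of 0.05. The span runs from HIF1A at -0.92 to GLUD2 at 1.17, whose wide error bar did not let it pass, and all 3 transporter genes lie left of 0, of which SLC36A4 and SLC38A2 were above 0 with the GC and length trend removed.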

How the data were processed

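RNA-seq libraries of DU 145 cells (talazoparib, n = 3; control, n = 3) were used as deposited. Per the labels' protocols, TRIzol RNA was made into VAHTS Universal V6 libraries. Trimmomatic, HISAT2, HTSeq, Cufflinks and the build GRCh38 are listed in the submitters' processing notes. The sources used here give no versions, annotation or strand setting. Per the file headers, the authors deposited raw counts per gene symbol and FPKM. Each FPKM equals the count over a gene length and the column total, and the lengths this implies were whole within 0.01 nt for 99.95% of 21065 genes, so FPKM adds only the length.

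Counts were fitted with edgeR 4.0.16 in R 4.3.3: filterByExpr (minimum count 10), TMM scaling, robust quasi-likelihood test, Benjamini-Hochberg adjustment over 14452 genes at 0.05. SE is the absolute log2 fold change over the square root of F. Trend removal used natural splines (5 degrees of freedom each) of GC content (longest GENCODE 29 transcript) and length as an offset, for 13718 genes (94.9%). Profile distances used log2 CPM with a prior count of 2. The scripts were tested on simulated data. Replicate libraries of each group differed by more than counting noise. Alternatives were DESeq2 1.42.0, limma 3.58.1 on FPKM, other scalings and filters, the replicate block and leaving out each library. A few items of the planned lists are not reported here. Members, lists and alternatives were chosen with earlier results of these data known. Named were the 6 genes, from each list at most 6 called genes by smallest adjusted p, genes not tested, the 4 factors and the nearest profiles per member (up to 3); other genes (DGCR6, markers, genome neighbours and list genes that turned under an alternative) were picked with values in view.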

Additional observations from a re-analysis of the deposited data

How the results depend on the processing

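Removing the trend over GC content and length moved the log2 fold change of PRODH to 1.35, ALDH4A1 to 0.16, OAT to -0.091, PYCR1 to -0.17 and PYCR3 to -0.0055. With the replicate block added to that fit they were 1.36, 0.16, -0.095, -0.17 and -0.0041. The SE of ALDH4A1 was then 0.06, against 0.05 without the block. The fit of the trend over length alone gave 0.18 for PYCR1. With limma on log2(FPKM + 1), a scale that understates low genes, PRODH had 1.28, against 1.73 on log2(FPKM + 0.1). ALDH4A1 had 0.47 and 0.49 on these scales. Under total count scaling, which like FPKM lacks the TMM factors, ALDH4A1 had 0.49, and ALDH18A1 had -0.16 against -0.08. Under DESeq2, total count and upper quartile scaling, no filter and a minimum mean of 1 CPM, the 6 genes kept their direction. Leaving out each library gave 1.69 to 1.99 for PRODH, 0.49 to 0.59 for ALDH4A1, 0.25 to 0.35 for PYCR1, 0.34 to 0.48 for PYCR3, -0.15 to -0.04 for ALDH18A1 and -0.65 to -0.50 for OAT. Of the 38 tested list genes, 15 to 28 were changed and 6 to 16 higher when 1 library was left out. With all libraries they were 24 and 14. Over all genes 6353 to 8549 were changed and 2622 to 3973 higher, against 8200 and 3873 with all libraries. The lowest of each were without control replicate 3. List genes called lower were 6 with the GC and length trend removed, 4 with the length trend removed and 4 with the trend removed and the block. Over all genes these counts were 3068, 3423 and 2574, against 4327 as counted.

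Genes of the pathway lists called with or without the trend that turned once the trend over GC content and length was removed, with the value under the added block after each, were ASL (-0.16, -0.16), NAGS (-0.086, -0.085), P3H1 (-0.046, -0.047), PEPD (-0.18, -0.19), AZIN1 (0.18, 0.18), PREP (0.37, 0.38), SLC36A4 (0.27, 0.27), SLC38A2 (0.43, 0.43) and PPARG (0.14, 0.14). With the length trend alone removed PREP had 0.50 and SLC36A1 0.12. The cause was not tested.

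Same-numbered libraries did not deviate together (correlations -0.09, -0.17 and 0.0039), and no talazoparib library correlated best with its own number. With 3 libraries per group this cannot exclude a shared culture or day, on which the labels are silent. The block was therefore kept as an alternative. The replicate block gave 7580 changed genes against 8200, and 20 list genes against 24; it ended the call of MYC (-0.22, edgeR adjusted p = 0.0726). Added to the trend removal, it ended those of SLC36A1 (-0.24, edgeR adjusted p = 0.0913) and SLC36A4 (0.27, edgeR adjusted p = 0.0994). With the block and the trend removal together, 5137 genes were changed, 2563 higher and 2574 lower, and 14 list genes were changed. Counts limit precision most for PRODH, which had 101 to 158 counts in controls.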

Other observations

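The tested genes nearest to each of the 6 on the chromosome, chosen after values of these data were seen, give a local comparison. Their fold changes are as counted, with the trend over GC content and length still in them. TIGD5, a transposon-derived gene 688 bp from PYCR3, rose (log2 fold change 0.58 ± 0.11, edgeR adjusted p = 0.000584), as did MAFG, a small Maf transcription factor gene 4669 bp from PYCR1 (0.45 ± 0.07, edgeR adjusted p = 0.000225). IFFO2, 1499 bp from ALDH4A1, fell (-0.24 ± 0.08, edgeR adjusted p = 0.0261), in the direction opposite to ALDH4A1. TCTN3, 6689 bp from ALDH18A1, had 0.05 ± 0.08 (edgeR adjusted p = 0.606), and LHPP, 42857 bp from OAT, had 0.15 ± 0.13 (edgeR adjusted p = 0.333). DGCR5, a noncoding gene 33971 bp from PRODH, rose by 0.58 ± 0.23 (edgeR adjusted p = 0.0454), less than PRODH and DGCR6.

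The second promoter window that RefSeq gives for ALDH4A1, at chr1:18890842-18891141 on the minus strand, held 2 CpG, against 25 in the first and a median of 14 over all windows. The windows of ALDH18A1 and OAT held 31 and 33 CpG. No methylation was measured in these libraries.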
